A study of Homo sapiens with 6 samples.

Results

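miR-483 is the microRNA gene that lies inside IGF2, the gene of insulin-like growth factor 2. Rows of the deposited table were chosen by name, with the arm ending removed: every row of miR-483, and every row of miR-675, the microRNA of the neighbouring noncoding gene H19. The rule found 4 of the 1007 rows, which are miR-483-5p (hsa-miR-483-5p in the table), miR-483-3p, miR-675-5p and miR-675-3p. Only miR-483-5p was abundant, and the results below turn on it. The libraries hold small RNA of 18 to 30 nt from extracellular vesicles in the medium of MHCC97H cells, a human liver cancer line of high metastatic potential. In 3 libraries the cells were controls, and in 3 they had been given xanthatin for 24 h at 4 µmol/L. Xanthatin is a plant compound of the sesquiterpene lactone class. The labels put DMSO at 0.5% in all experiments. All cells grew in medium with 5% fetal bovine serum plus 5% serum freed of exosomes, and vesicles were pelleted for 70 min at 120000xg. The part of serum vesicles in the reads, for any row or either group, was not tested. The labels do not say that the replicates came from separate cultures, so p-values measure only the spread between these libraries, which may be technical.

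IGF2 and H19 form an imprinted pair. IGF2, which drives fetal growth, is normally read from the copy inherited from the father, and H19 from the copy inherited from the mother. A microRNA hairpin is cut into a 5p and a 3p arm, and the arm loaded into an Argonaute protein pairs with target messages through its seed, the bases near its 5′ end. miR-483 is best known from tissues and tumours with active IGF2, such as fetal liver, Wilms tumour and adrenocortical carcinoma, and it also circulates in plasma. miR-675 is cut from the H19 transcript itself.

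In the GENCODE annotation of GRCh38, MIR483 (ENSG00000207805.3) lies on chromosome 11 from 2134134 to 2134209 on the minus strand. It fell fully inside an intron of 9 of the 11 annotated IGF2 transcripts and of 1 of 2 transcripts of the INS-IGF2 readthrough gene, and it overlapped an exon of none of these 13. MIR675 (ENSG00000284010.1) lies on the same strand from 1996759 to 1996831, with 137302 bases between the genes, and overlapped an exon of 4 of 12 H19 transcripts. The mature arms of miR-675 are shown as the products of the H19 side of the locus, with bases 2 to 8 (the seed) in capitals. Sequences are from RefSeq (GRCh38.p14).
miR-675-5p: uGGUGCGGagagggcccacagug
miR-675-3p: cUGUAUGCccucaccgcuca

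The deposited count of miR-483-5p was nearly the same in every library. Control replicates 1, 2 and 3 held 468, 519 and 534 counts, and xanthatin replicates 1, 2 and 3 held 526, 442 and 520. The groups overlapped on this raw scale, at 507 ± 34.6 (SD, n = 3) against 496 ± 46.9. The library totals were not the same: they ran from 63965 to 80088 microRNA counts in control and from 204520 to 267956 in xanthatin libraries, a mean 3.32 times as high. The steady count was therefore a smaller part of a larger library after xanthatin.

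As a share of all microRNA counts, miR-483-5p took 0.584% (exact Clopper-Pearson 95% interval 0.533 to 0.640), 0.739% (0.677 to 0.805) and 0.835% (0.766 to 0.908) in control replicates 1, 2 and 3. It took 0.221% (0.202 to 0.240), 0.165% (0.150 to 0.181) and 0.254% (0.233 to 0.277) in xanthatin replicates 1, 2 and 3. Every control library lay above every xanthatin library, and no interval of one group reached an interval of the other. Such intervals describe counting error alone, because amplified reads without molecular identifiers are not independent molecules. Within a group the intervals did not all overlap, so the replicates differed by more than counting error.

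Scaled to library size (CPM, with edgeR's TMM factors), miR-483-5p stood at 5417, 6558 and 7106 in the control replicates, and the xanthatin replicates stood at 2490, 1838 and 2888. The groups did not overlap, and the lowest control library held more than the highest xanthatin library. The group means were 6360 ± 862 and 2405 ± 530 CPM (SD, n = 3), 2.64 times as high in control. In edgeR's quasi-likelihood test, with Benjamini-Hochberg adjustment over 254 tested rows, the log2 fold change of xanthatin over control was -1.40 with an SE of 0.22 (adjusted p = 0.00470). On this scale miR-483-5p fell. Of all tested rows, 16.9% passed at an adjusted p under 0.05 in that direction, 30.3% passed in either direction, 54.7% had groups that did not overlap, and 29.5% had groups that did not overlap and were lower after xanthatin.

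The TPM scale that the authors deposited has a total far larger than the microRNA counts. Those counts were 0.660% to 0.708% of it in control and 0.761% to 0.841% in xanthatin libraries. What that total counts is not given in the sources used here. On this scale the control replicates of miR-483-5p read 38.6, 52.3 and 56.8, and its xanthatin replicates read 18.2, 13.9 and 19.4. The groups were again apart, with means of 49.2 ± 9.48 and 17.1 ± 2.89 (SD, n = 3). Both scaled measures divide the same count by 1 value per library, and that value was higher in every xanthatin library. Their shared direction thus follows from the steady count and is not separate support. Only the unscaled count shows no gap. In bulk vesicle RNA, fewer vesicles that carry miR-483-5p and less of it per vesicle cannot be told apart. Nor can the change of one microRNA and a rise of many others, because every scaled value is relative to the rest of the library.

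**Figure D1:**
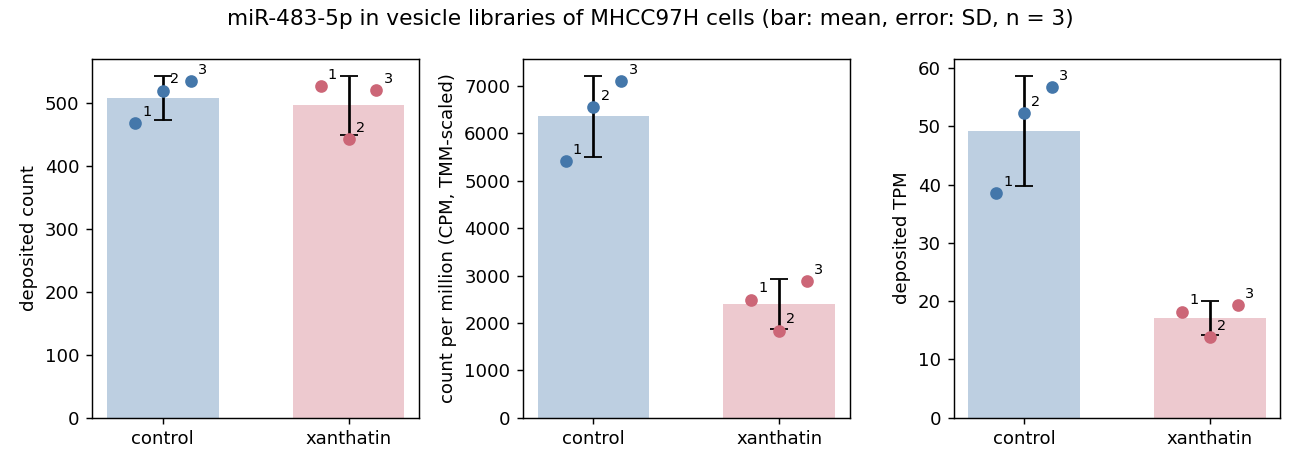
miR-483-5p in the 3 control and 3 xanthatin libraries as deposited count, TMM-scaled CPM and deposited TPM (points: libraries with replicate numbers; bars: means; error bars: SD). The counts of the groups overlap between 442 and 534, while on both scaled axes every control library lies above every xanthatin library.

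The spread between replicates of miR-483-5p was larger than counting alone would give. The expected coefficient of variation from counting was 4.44% in control and 4.49% in xanthatin libraries. The observed coefficient of the CPM was 13.5% and 22.1%. Depth set a small part of that error, and the difference of the group means was larger than the spread of either group. With all libraries thinned to 63965 counts, the depth of the smallest, the log2 fold change was -1.51 (adjusted p = 0.00128, edgeR). Random thinning keeps the expected share of each row, so a like value was fixed in advance and does not test depth. Depth and treatment move together in these libraries, and other effects of depth cannot be told apart from those of xanthatin.

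By abundance, miR-483-5p ranked 30, 22 and 22 among all rows of control replicates 1, 2 and 3. It ranked 47, 58 and 43 in xanthatin replicates 1, 2 and 3. Among known microRNAs alone the control ranks were 28, 21 and 21, and the xanthatin ranks were 40, 49 and 36. miR-483-5p was thus in the upper part of the vesicle microRNAs in both groups, and lower in the order in each xanthatin library than in any control library. Among the 254 tested rows its log2 fold change was the 61st from the lowest, and it was 9th in mean CPM of the 43 that fell. The median log2 fold change of all tested rows was -0.16, so miR-483-5p lay 1.24 below it.

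The other arm, miR-483-3p, known for targeting pro-apoptotic messages, was rare. It had 8 counts in each control library and 4, 4 and 6 in xanthatin replicates 1, 2 and 3. In CPM the control libraries lay from 92.6 to 106 and the xanthatin libraries from 16.6 to 33.3, without overlap. Summed over the groups, 24 against 14 counts gave a rate 4.50 times as high in control (exact 95% Poisson interval 2.24 to 9.41, counting error only). In edgeR it stood at -2.09 on the log2 scale with an SE of 0.64 and did not pass (adjusted p = 0.0520). This arm entered the test through the control libraries alone, so its place among the tested rows supports nothing. The call changed with the setting: with library totals only it passed in edgeR at -2.43 (adjusted p = 0.0323), with RLE factors it did not at -2.01 (adjusted p = 0.0535), and with DESeq2, which is another test, it passed at -2.06 (adjusted p = 0.0417).

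The 5p arm made up nearly all reads of the hairpin. Its part of the summed 5p and 3p counts was 98.3%, 98.5% and 98.5% in control replicates 1, 2 and 3, and 99.2%, 99.1% and 98.9% in xanthatin replicates 1, 2 and 3. The shares of the groups did not overlap, but their exact 95% intervals did: the lowest control share allowed up to 99.3% and the lowest xanthatin share down to 97.5%. The log2 ratio of 5p to 3p (0.5 added to each count) was 5.90 ± 0.10 in control and 6.60 ± 0.27 in xanthatin libraries (SD, n = 3), a difference of 0.71 (two-sided exact permutation p = 0.10, the smallest that 3 against 3 can give). At 4 to 8 counts of miR-483-3p per library, no change of the arm balance was detectable beyond that.

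The neighbour miR-675 was close to undetected. miR-675-3p had 13 counts in control replicate 1 and 0 in the other libraries. miR-675-5p had 5 counts in xanthatin replicate 2 and 0 in the other libraries. Neither arm had enough counts for the test, and neither was read in more than 1 library of a group. A count of 0 allows up to 3 counts, which is 34.7 to 39.9 CPM in a control and 12.5 to 16.7 CPM in a xanthatin library. The level of miR-483-5p was far above those floors in every library, so the pair of imprinted neighbours was represented in these vesicles almost wholly by the IGF2 side.

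The rows most alike in pattern to miR-483-5p were found by the root mean square difference of log2(CPM + 1), each row centred on its own mean over the 6 libraries. The 5 closest of 253 were miR-372-3p (0.05), miR-371b-3p (0.06), miR-371a-5p (0.07), miR-371a-3p (0.10) and miR-148a-3p (0.10), with Pearson r of 0.992 to 0.999. These coefficients describe 6 libraries that all rows share, with their depths and scaling factors. The first 4 come from the miR-371 to miR-373 cluster on chromosome 19, which is active in embryonic stem cells and germ cell tumours, and miR-148a is abundant in hepatocytes. Their mature sequences are shown to set them side by side, with bases 2 to 8 in capitals (RefSeq, GRCh38.p14).
miR-372-3p: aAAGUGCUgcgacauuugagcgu
miR-371b-3p: aAGUGCCCccacaguuugagugc
miR-371a-5p: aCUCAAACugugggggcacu
miR-371a-3p: aAGUGCCGccaucuuuugagugu
miR-148a-3p: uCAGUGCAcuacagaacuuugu

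No 2 of these 5 shared bases 2 to 8, while miR-371b-3p and miR-371a-3p shared bases 2 to 7. miR-371a-5p, on the plus strand of chromosome 19 from 53787680 to 53787699, is over its whole 20 bases the reverse complement of part of miR-371b-3p, on the minus strand from 53787678 to 53787700. How the authors treated strand is not given in the sources used here, so reads of these 2 may not be separate.

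These 5 rows fell by amounts close to that of miR-483-5p. The log2 fold changes were -1.48 for miR-372-3p, -1.44 for miR-371b-3p, -1.48 for miR-371a-5p, -1.40 for miR-371a-3p and -1.29 for miR-148a-3p, and all 5 passed in edgeR (adjusted p = 0.00272 to 0.00839). Since they were chosen for likeness, that agreement was fixed by the choice and is a description only. Without control replicate 2, miR-371a-3p no longer passed in edgeR (adjusted p = 0.0522), nor did it with no count filter (-1.14, adjusted p = 0.0555).

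The scaling factor of a library is the same for every row, so it nearly cancels in the likeness measure. Rows close to miR-483-5p by that measure had to share its pattern of unscaled counts. The low count spread of the 5 rows below was thus fixed by the choice and is a description only. Over the 6 libraries, the count of miR-483-5p had a coefficient of variation of 7.44%, the third smallest of the 254 tested rows, whose median was 74.9%. The library totals varied by 60.3%. Only 7 tested rows were under 10%: miR-371b-3p (5.18%), miR-371a-5p (6.55%), miR-483-5p, miR-148a-3p (7.54%), miR-372-3p (7.66%), miR-200c-3p (8.23%), a keeper of epithelial identity, and miR-371a-3p (9.29%). This measure and its limit were chosen after the values were seen. A row whose count is steady while the total rises must fall once scaled, so the log2 fold changes of these 7, from -1.48 to -1.25, follow from that steadiness and are not separate findings.

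The proportion of miR-483-5p to each of the 5 rows within a library restates the likeness by which they were chosen, and is given to show the counts. It was 22.9%, 22.6% and 22.3% of the miR-372-3p count in control replicates 1, 2 and 3, and 24.5%, 22.8% and 23.7% in xanthatin replicates 1, 2 and 3. The coefficient of variation of that proportion over the 6 libraries was 3.50%. Against miR-371b-3p the proportion was 39.7% ± 1.03 in control and 40.6% ± 2.56 in xanthatin libraries (SD, n = 3). Against miR-371a-5p it was 51.5% ± 0.69 and 54.2% ± 3.74. Against miR-148a-3p it was 11.6% ± 0.56 and 10.6% ± 0.88, and against the rarer miR-371a-3p it was 216% ± 15.2 and 213% ± 19.4. Over the 5 rows the coefficient of variation ran from 3.50% to 7.73%, the latter for miR-148a-3p.

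**Figure D2:**
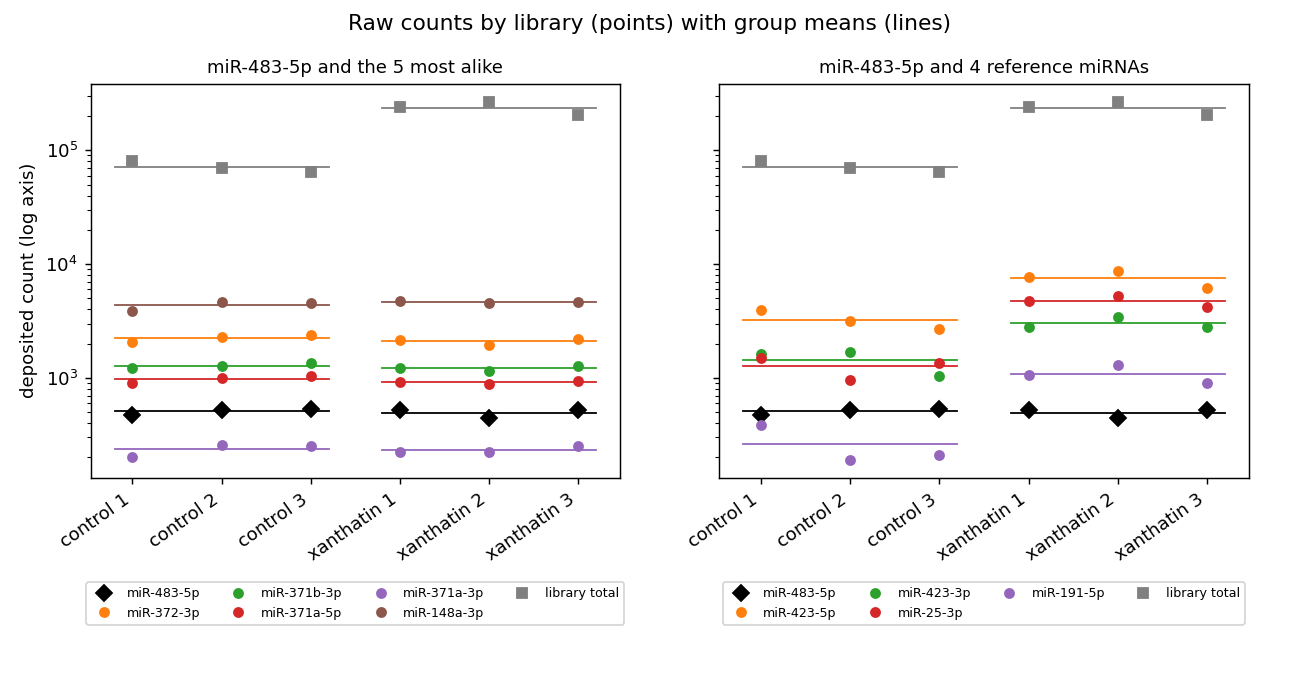
Deposited counts on a log axis for each library, with group means as lines, for miR-483-5p with the 5 rows most alike (left) and with 4 reference microRNAs (right); squares are the library totals. miR-483-5p and the 5 rows on the left stay level between groups, while the totals and the reference microRNAs are higher in every xanthatin library.

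Reference microRNAs, which laboratories often use to scale others, moved with the library totals instead. None of the 6 tested of 7 listed passed in edgeR, and their median log2 fold change was 0.59, beside -0.16 over all tested rows. miR-423-5p was at 40300.2 ± 4841 CPM in control and 35616 ± 1333 in xanthatin libraries (log2 fold change -0.18; -0.52 with library totals only, where it passed at adjusted p = 0.00463). miR-423-3p was at -0.32, which passed with library totals only at -0.66 (adjusted p = 0.0253). miR-25-3p was at 0.52 (adjusted p = 0.0513) and miR-191-5p at 0.65 (adjusted p = 0.0994), and both passed in other settings. miR-93-5p and miR-103a-3p were at 0.86 and 1.10 with large errors (SE 0.98 and 0.66), and miR-16-5p had 2 to 31 counts, too few for the test.

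The ratio of miR-483-5p to the geometric mean of the 7 reference microRNAs was taken within each library, with 0.5 added to each count. On the log2 scale, control replicates 1, 2 and 3 gave 1.31, 2.25 and 2.69, and xanthatin replicates 1, 2 and 3 gave 0.58, -0.40 and 0.11. Every control library was above every xanthatin library. The means were 2.09 ± 0.70 and 0.10 ± 0.49 (SD, n = 3), a difference of -1.99 (two-sided exact permutation p = 0.10, the smallest that 3 against 3 can give; 0.16 after Benjamini-Hochberg adjustment over the 8 ratios computed). The geometric mean gives rare rows the same weight as abundant ones. Control replicates 1, 2 and 3 held 40, 7 and 2 counts of miR-93-5p, 12, 5 and 5 of miR-103a-3p, and 4, 4 and 2 of miR-16-5p. With miR-423-5p, the most abundant of the 7, as the only reference the difference was -1.25.

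**Figure D3:**
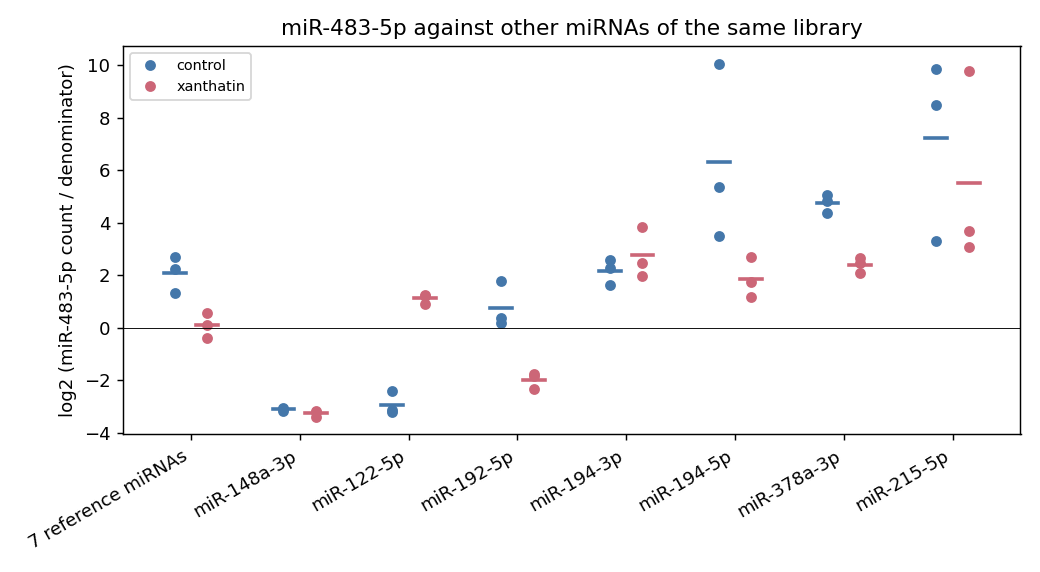
log2 ratio of the miR-483-5p count to the geometric mean of 7 reference microRNAs and to each tested liver-enriched microRNA, per library (points) with group means (bars). The ratio to the reference microRNAs is lower in all 3 xanthatin libraries, the ratio to miR-122-5p is higher in all 3, and the ratio to miR-148a-3p overlaps between groups.

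Relative to other microRNAs that are abundant in hepatocytes, miR-483-5p was lower after xanthatin against some and higher against others. Of the 8 listed names, with miR-483 left out, 11 rows were found and 7 tested, of which 2 fell (miR-148a-3p and miR-122-5p), 1 rose (miR-192-5p) and 4 did not pass. Of those 4, miR-194-3p, at a log2 fold change of -1.80 (adjusted p = 0.0585, edgeR), passed with library totals only at -2.14 (adjusted p = 0.0321) and in DESeq2 at -1.74 (adjusted p = 0.00901). Of all tested rows, 16.9% were called lower and 13.4% higher, so with 7 rows tested these counts show nothing about the list. The median log2 fold change of the 7 tested rows was -0.38, beside -0.16 over all tested rows. The listed names together held 10.98% to 13.9% of control counts and 2.78% to 3.42% of xanthatin counts. miR-122-5p held 4.45% to 6.46% of control counts and 0.0881% to 0.107% of xanthatin counts. miR-885-5p had 15, 0 and 0 counts in control replicates 1, 2 and 3 and 0 in all xanthatin libraries. The summed share therefore does not show that each marker was present.

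The log2 ratio of miR-483-5p to miR-122-5p, the main hepatocyte microRNA, took values of -3.20, -3.13 and -2.41 over the control replicates, against 1.22, 0.90 and 1.25 over the xanthatin replicates. miR-122-5p outnumbered miR-483-5p in every control library, and miR-483-5p outnumbered miR-122-5p in every xanthatin library. The difference was 4.04 (two-sided exact permutation p = 0.10, adjusted 0.16 over the 8 ratios). The ratio to miR-192-5p, a microRNA of liver and gut epithelium, moved the other way, from 0.78 ± 0.88 to -1.97 ± 0.32 (SD, n = 3), a difference of -2.75 with the same permutation p. The call of miR-192-5p itself (log2 fold change 1.22, adjusted p = 0.0399, edgeR) was lost in several settings, among them library totals only (0.89, adjusted p = 0.0791), the replicate block (1.32, adjusted p = 0.0715) and each fit without control replicate 1 or without xanthatin replicate 1, 2 or 3 (adjusted p = 0.0823 to 0.0943).

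For miR-148a-3p the ratio was -3.10 ± 0.07 in control and -3.24 ± 0.12 in xanthatin libraries (SD, n = 3). The groups overlapped, and the difference of -0.13 had a two-sided exact permutation p = 0.20 (0.27 adjusted over the 8 ratios). The other ratios were to rarer rows. Those to miR-194-5p and miR-378a-3p were lower in all 3 xanthatin libraries, with differences of -4.44 and -2.35 on the log2 scale. Those to miR-194-3p and miR-215-5p overlapped between groups. miR-194-5p and miR-215-5p each had 0 counts in at least 1 library, so their ratios rest on the 0.5 that was added.

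Rows next to miR-483-5p in mean CPM did not move as a block. Of the 5 next above it, novel643_mature, let-7g-5p and miR-21-5p rose (log2 fold changes 2.82, 1.90 and 1.36, edgeR), while miR-320a-3p at -0.38 and miR-28-3p at 0.69 did not pass; miR-28-3p passed in 4 other settings, among them DESeq2 (0.79, adjusted p = 0.0493) and without control replicate 2 (1.12, adjusted p = 0.0219). Of the 5 next below, miR-486-5p and novel260_mature fell (-3.52 and -1.18), novel2_mature rose (2.13; call lost without control replicate 2, adjusted p = 0.0656), and miR-191-5p at 0.65 and miR-320b at -0.48 did not pass. At the abundance of miR-483-5p, where counting error is small, changes of both signs were thus called.

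**Figure D4:**
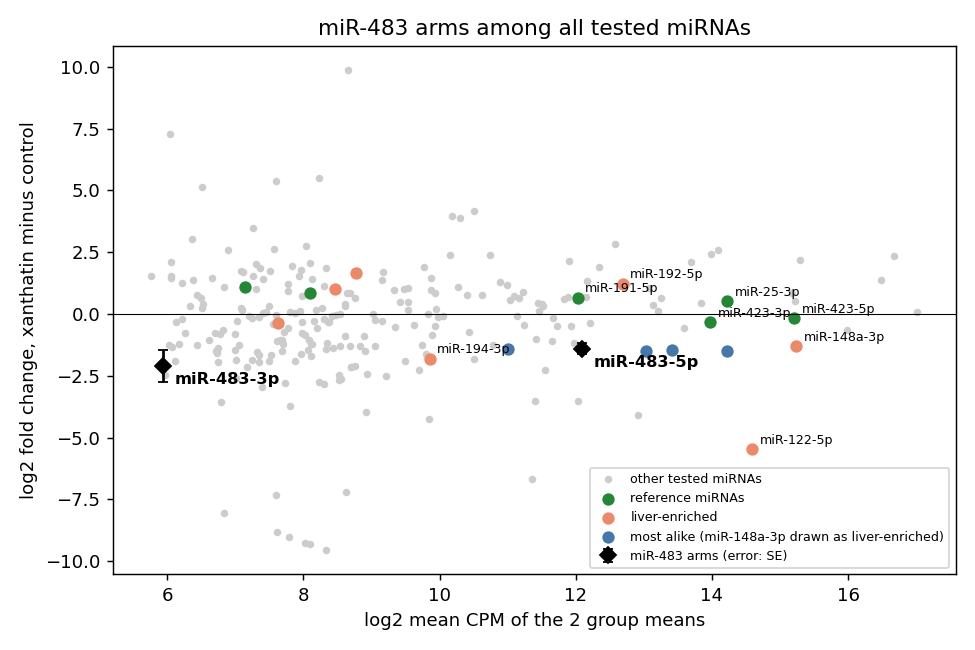
log2 fold change (xanthatin minus control, edgeR) against the log2 of the mean CPM for the 254 tested rows, with the miR-483 arms (diamonds, error bars SE), reference microRNAs, liver-enriched microRNAs and the rows most alike marked. miR-483-5p sits at -1.40 among the rows most alike in pattern, below the reference microRNAs and far above miR-122-5p at -5.48.

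Other imprinted loci were listed to set the IGF2 and H19 locus among them: MEST, GNAS, the 14q32 domain and the large chromosome 19 cluster. Of 87 names, 25 rows were found and 7 were tested, of which 4 fell and 3 did not pass. The 4 are of 14q32 and were nearly absent after xanthatin. They entered the test through their control counts alone, so a fall was the only call they could give, and their count supports nothing about imprinted loci. For miR-127-3p the control replicates held 32, 91 and 62 counts and the xanthatin replicates 0, 3 and 0, and for miR-409-3p they held 32, 23 and 37 against 1, 0 and 0. miR-432-5p and miR-493-5p had 8 to 58 counts in control and 0 in all xanthatin libraries. The 3 that did not pass had counts in every library, but their scaled values were lower after xanthatin. miR-335-3p of MEST was at a log2 fold change of -0.44, and miR-522-3p and miR-516b-5p of chromosome 19 at -1.06 and -1.88 (miR-516b-5p passed with library totals only, adjusted p = 0.0436, edgeR). miR-516b-5p, with 7, 10 and 9 counts in the control and 4, 7 and 7 in the xanthatin replicates, also entered the test through its control libraries alone. Its calls thus support nothing either. miR-483-5p, whose 3 xanthatin libraries held 442 to 526 counts, was never near 0 as the 14q32 rows were.

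Among microRNAs reported to repress messages of the IGF pathway (the receptor IGF1R, its IRS adaptors, or the RNA-binding IGF2BP proteins), most calls came from 1 family, let-7. Of 22 names, 26 rows were found and 18 tested, of which 10 rose, 2 fell and 6 did not pass; of all tested rows, 13.4% were called higher and 16.9% lower. The let-7 family, with miR-98, gave 8 of the 10 that rose. Among the other names 2 rose (miR-100-5p and miR-7-5p) and 2 fell (miR-122-5p and miR-143-3p). Of the called rows, miR-98-5p entered the test through its xanthatin libraries and miR-143-3p through its control libraries. These 2 calls therefore support nothing about the list. The median log2 fold change of the tested list was 0.94, beside -0.16 over all tested rows. Of the 4 most abundant called, let-7b-5p, let-7a-5p and miR-100-5p rose (1.37, 2.17 and 0.54) and miR-122-5p fell (-5.48). With library totals only, miR-100-5p was at 0.19 (adjusted p = 0.192, edgeR). Of the 22 names 9 are of the let-7 family, including miR-98, and their sequences differ by few bases, so reads may be shared between them.

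Markers of other cell types were also listed, and few of their rows had enough counts for the test. Of 6 rows of blood cell microRNAs found, 1 was tested, and it fell: miR-486-5p. Of all tested rows, 16.9% were called lower, so 1 called row supports nothing about a list. The summed share of the list was 0.619% to 1.19% of control and 0.0556% to 0.0705% of xanthatin counts. It was nearly all miR-486-5p, with 949, 432 and 497 counts in the control and 167, 139 and 115 in the xanthatin replicates. No other row of the list had more than 11 counts in any library. The 2 rows at 0 in all xanthatin libraries were sparse in control too: miR-150-5p had 0, 0 and 11 counts and miR-223-5p had 0, 0 and 2. miR-451a, the defining red cell microRNA, had at most 9 counts in any library. Of 6 rows of stromal and endothelial microRNAs, 2 were tested and 1 fell (miR-143-3p, log2 fold change -4.26). Their summed share was 0.121% to 0.331% in control and 0.0108% to 0.0210% in xanthatin libraries, and 3 rows were at 0 in all xanthatin libraries. These 3 were sparse in control too: miR-214-3p had 39, 0 and 0 counts, miR-145-5p 5, 0 and 3, and miR-145-3p 1, 0 and 0. miR-126-3p, the endothelial member, was at -1.86 (adjusted p = 0.0750, edgeR; -2.21 and adjusted p = 0.0463 with library totals only). Both tested rows of the stromal and endothelial list entered the test through their control libraries, so their calls support nothing about that list. The part of blood cell, stromal and endothelial reads in the fall of miR-483-5p was not tested. The composition of the libraries shifted as well, with the predicted sequence novel550_mature at 3.45% to 4.22% of control and 14.5% to 17.2% of xanthatin counts. Without that row, miR-483-5p was at -1.31 (adjusted p = 0.00841, edgeR).

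**Figure D5:**
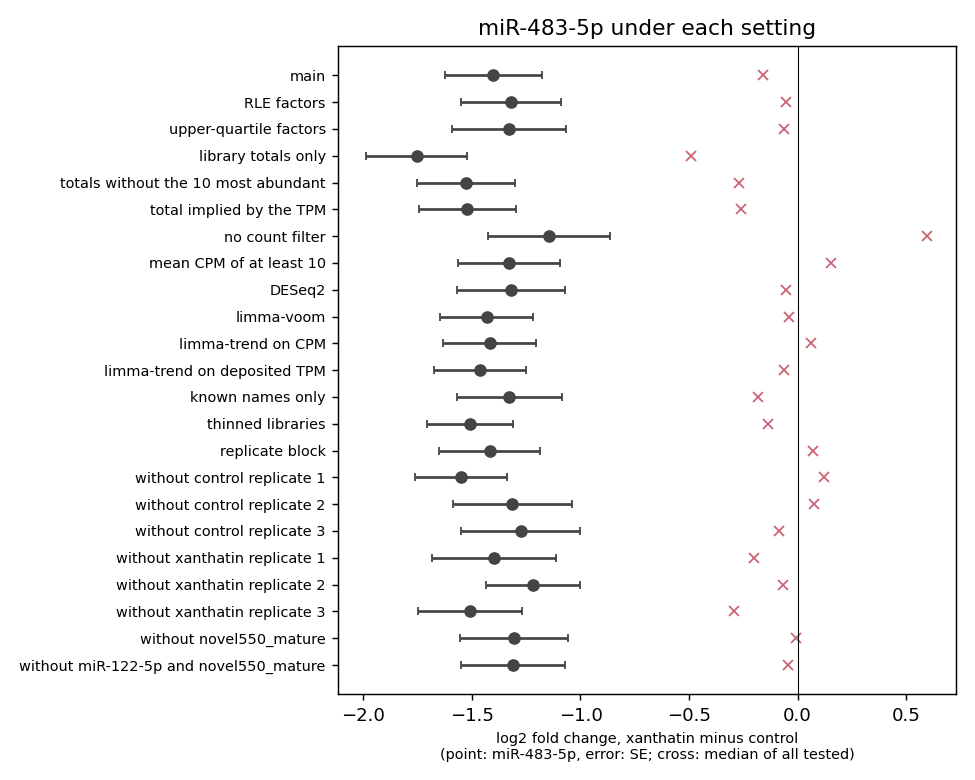
log2 fold change of miR-483-5p (points, error bars SE) and the median of all tested rows (crosses) in the main fit and 22 alternatives. miR-483-5p lies between -1.75 and -1.15 throughout, below the median of all tested rows in every setting.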

How the data were processed

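Small RNA libraries of vesicles were compared, 3 control and 3 xanthatin. Per the file headers, the authors deposited a count per microRNA name (whole numbers, not normalised) and a TPM value per library. The deposited TPM equals the count divided by 1 constant per library, scaled to a total that exceeds the microRNA counts and is not explained. Per the submitters' processing notes the genome build is hg38; which aligner, database and counter were used is not given in the sources used here. The test of the counts was that of edgeR 4.0.16, run in R 4.3.3 (quasi-likelihood F test on group, TMM, minimum count 10, threshold 0.05 after Benjamini-Hochberg adjustment), which kept 254 of 1007 rows. SE values divide the size of the log2 fold change by the square root of F. limma 3.58.1 and DESeq2 1.42.0 were alternatives. The test was checked on simulated counts. Within-library ratios were compared by two-sided exact permutation. Replicates were not identical (chi-square per degree of freedom 16.1 to 21.3).

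The member, the lists and the tests were chosen with earlier results of these data known. Named rows are the miR-483 and miR-675 arms, the 5 most alike, the 5 next above and below in mean CPM, tested reference and liver-enriched rows, and up to 4 called members of each other list. Rows named for a steady count, 14q32 rows near 0 and members that did not pass were named after their values were seen. Positions are from GENCODE release 29 (GRCh38), and 441 of 497 known names matched a RefSeq mature sequence.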

Additional observations from a re-analysis of the deposited data

How the results depend on the processing

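miR-483-5p stayed lower and past the threshold in all 22 alternatives, from -1.75 (library totals only, adjusted p = 0.00233, edgeR) to -1.15 (no count filter, adjusted p = 0.0127), with a largest adjusted p = 0.0264. Leaving out 1 library gave -1.55 to -1.22. With the replicate block it was -1.42 (adjusted p = 0.0264) and 54 rows were called; the numbers share no stated source, and same-numbered libraries deviated together by correlations of 0.09, -0.08 and -0.14. The scaling moves all rows: the median was -0.16 with TMM, -0.49 with library totals only and -0.05 with RLE, and miR-483-5p lay 1.24 to 1.27 below it in each. Of 77 called rows, 44.2% were higher; with library totals only it was 26.8% of 82. With known names only, 49 were called of 175 tested. The ratio to the reference microRNAs was -1.25 with miR-423-5p alone and -2.37 to -1.69 with 1 library left out. Of 849 values of 39 other named rows, 786 kept direction and call, 13 lost a call, 44 gained one and 6 turned: miR-215-5p to 0.93 and 0.0605 (limma-trend on CPM and on TPM), 2.55 (replicate block), 4.62 and 0.22 (without control replicate 2 or xanthatin replicate 2; -1.06 without control replicate 1), and miR-423-5p to 0.11 (no count filter). The cause was not tested. Leaving out novel550_mature, alone or with miR-122-5p, was added after the data were seen.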
